A study of Mus musculus with 8 samples.

Results

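The response of mpkCCDc14 cells to 6 h of aldosterone was read on 4 dual-colour arrays, chosen by the treatment time in their labels from the 8 arrays of the series; the other 4 followed 1 h of the hormone. mpkCCDc14 is a mouse line of kidney cortical collecting duct cells. All cells, treated and control, were grown as layers on collagen-coated porous filters until electrically tight and were then kept in serum stripped of steroids and free of dexamethasone. One channel of each array (Cy5) carried cDNA of cells given aldosterone at 1 µM for 6 h, and the other channel (Cy3) carried cDNA of cells given the ethanol vehicle for the same 6 h. The 1 h arrays were made the same way with 1 h of either treatment. A log2 ratio above 0 therefore means more signal with aldosterone than with vehicle, and a log2 ratio of 1 is a 2-fold difference. The cells are 1 line in culture, so the arrays describe that line and not the cell types of a kidney.

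Aldosterone is the adrenal steroid that makes the end of the nephron take back sodium. It enters the cell and binds the mineralocorticoid receptor and, at high concentrations, the glucocorticoid receptor, and both receptors bind the same palindromic DNA element near their target genes. In collecting duct cells the known targets act on the epithelial sodium channel of the apical membrane, on the kinases and ubiquitin enzymes that hold that channel at the surface, and on the sodium pump of the basolateral membrane.

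Each 6 h array gave 16159 values, with medians between -0.0048 and 0.0040. Their standard deviation was 0.318, 0.392, 0.310 and 0.494 on replicates 1 to 4, so replicate 4 had the widest ratios and replicate 3 the narrowest. Pearson correlations between pairs of 6 h arrays, taken after the probes of a gene were averaged, ran from 0.461 to 0.590. The tests compared the mean of the 4 arrays with 0 in a limma fit over all 8 arrays, and errors below are standard errors of that fit with n = 4. The dyes were never exchanged, so a response to the hormone and a difference between the dyes cannot be told apart in these tests. Whether each array had a culture of its own is not in the labels, and the p-values rest on the spread between these arrays at both times. In a mixed layer, fewer cells of a type and less RNA per cell cannot be told apart either.

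Of 15154 features tested (12535 named genes, 2530 unnamed probes, 13 with several symbols and 76 probes read at 6 h only), 1072 were called above vehicle and 1600 below, with an adjusted p under 0.05. These are 7.07% and 10.6% of all features, the shares against which the gene groups below are read. Most ratios were small. The median log2 ratio was 0.37 among features above vehicle and -0.45 among those below, and 43 features above (0.284%) and 125 below (0.825%) were also at least 2-fold from vehicle. Without replicate 4 at 6 h the counts were 353 above and 750 below, without replicate 2 they were 412 and 803, without replicate 3 475 and 904, and without replicate 1 605 and 1131. Without replicate 4 at 1 h, which shares in the estimate of the spread, they were 1846 and 2132. A smaller set of 247 features above (1.63%) and 599 below (3.95%) stayed called whichever of the 8 arrays was left out.

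Fkbp5, Sgk1, Scnn1a, Tsc22d3, Usp2 and Atp1b1 are the best known of the genes that moved, and their start regions, where given, were searched for the receptor element together with those of Sult1d1. The element was searched as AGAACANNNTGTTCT, which reads the same on both strands, and its half-sites as AGAACA or TGTTCT, which are each other's reverse complement. The windows ran from 250 bases before each annotated start to 50 after it, in RefSeq on build GRCm38.p6. Such windows were given for 6 of the genes searched, Sgk1, Tsc22d3, Fkbp5, Usp2, Atp1b1 and Sult1d1, 13 windows in all. The full element was in 3 of 32851 windows of all genes (0.00913%), and 1 of the 3 was a start of Sgk1. A half-site was in 6233 windows (19%), among them 3 of 6 windows of Sgk1 and 1 of 3 of Tsc22d3. The single windows of Fkbp5, Usp2, Atp1b1 and Sult1d1 held neither form. Both windows below are shown because they hold these letters in genes called above vehicle at 6 h, with the half-sites in capitals. The window of Sgk1 is chr10:21993640-21993939 on the plus strand, with the element from 189 to 175 bases before the start and a further half-site at 242. The window of Tsc22d3 is chrX:140600473-140600772 on the minus strand, with a half-site at 185 bases before the start.
Sgk1: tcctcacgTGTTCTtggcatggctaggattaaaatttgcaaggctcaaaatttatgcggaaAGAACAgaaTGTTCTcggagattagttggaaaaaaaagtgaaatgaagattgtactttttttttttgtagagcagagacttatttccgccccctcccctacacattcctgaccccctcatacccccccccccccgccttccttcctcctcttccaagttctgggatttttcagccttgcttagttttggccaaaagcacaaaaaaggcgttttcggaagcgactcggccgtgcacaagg
Tsc22d3: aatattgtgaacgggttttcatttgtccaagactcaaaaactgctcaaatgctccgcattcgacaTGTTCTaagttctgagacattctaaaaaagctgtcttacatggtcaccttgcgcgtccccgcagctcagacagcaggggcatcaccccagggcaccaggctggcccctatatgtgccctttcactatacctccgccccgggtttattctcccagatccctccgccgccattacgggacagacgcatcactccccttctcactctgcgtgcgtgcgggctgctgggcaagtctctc
The match describes the letters of these windows and not binding in these cells.

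Sgk1, the kinase that keeps the epithelial sodium channel at the cell surface by phosphorylating the ubiquitin ligase Nedd4l, had log2 ratios of 2.65, 2.00, 1.53 and 1.46 on replicates 1 to 4. All 4 arrays were above vehicle, replicate 1 the furthest. The mean was 1.91 ± 0.35, a 3.76-fold difference (adjusted p = 0.00845). Tsc22d3, the gene of GILZ, a leucine zipper protein induced by glucocorticoids, stood at 1.15, 1.15, 1.59 and 1.19, with replicate 3 above 3 closely grouped arrays. Its mean was 1.27 ± 0.23 or 2.41-fold (adjusted p = 0.00821).

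Fkbp5, an immunophilin that sits on steroid receptor complexes and lowers their affinity for hormone, had the tightest large response. Its log2 ratios were 2.13, 2.08, 2.07 and 2.11, and the mean of 2.10 ± 0.11 was a 4.28-fold difference (adjusted p = 7.92e-05). Scnn1a, the sodium channel's alpha subunit gene, read 1.78, 1.24, 1.56 and 1.31, or 1.47 ± 0.11 on average (2.77-fold, adjusted p = 0.000223). Usp2, a ubiquitin-specific protease, read 1.45, 0.87, 0.89 and 0.97, with replicate 1 the highest, and averaged 1.04 ± 0.15 (2.06-fold, adjusted p = 0.00362). Sult1d1, a cytosolic sulfotransferase of amines and phenols, had the highest mean of the genes called without each array in turn, at 2.83, 2.47, 2.05 and 1.99. Its mean was 2.33 ± 0.15, a 5.05-fold difference (adjusted p = 0.000186). The calls of these 6 genes held whichever array was left out.

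Of 40 measured genes in a list of corticosteroid-induced targets, 11 were above vehicle at 6 h (27.5%, against 7.07% of all features), 2 were below (5%, against 10.6%) and 27 did not pass. The list's median log2 ratio was 0.17, and that of all features was 0. The members were chosen with earlier results of these data known, so the count is a description. Besides the 6 genes above, Cebpb, a C/EBP transcription factor, stood at 0.51 ± 0.08 (adjusted p = 0.00406), with replicate 4 the lowest at 0.27 and the others between 0.56 and 0.65. The remaining 4 above vehicle act on growth arrest and redox balance and lost their calls when single 6 h arrays were left out. The cyclin-dependent kinase inhibitor Cdkn1a, at 0.37 ± 0.08, was not called without replicate 2 (adjusted p = 0.0568). Its relative Cdkn1c, at 0.58 ± 0.15, was not called without replicate 3 (0.0912) or 4 (0.112), and the growth arrest gene Gadd45g, at 0.46 ± 0.10, was not called without replicate 1 (0.0592) or 3 (0.068). Txnip, which encodes an inhibitor of thioredoxin, at 0.28 ± 0.07, was not called without replicate 2, 3 or 4 (adjusted p from 0.0757 to 0.107).

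The targets below vehicle were Lox, the lysyl oxidase that cross-links collagen, and Hif3a, a hypoxia-inducible factor subunit. Lox read -0.33, -0.68, -0.45 and -0.44, with a mean of -0.47 ± 0.08 (adjusted p = 0.00545), and held without each array. Hif3a averaged -0.30 ± 0.07 (adjusted p = 0.0227) over probes at -0.10 and -0.51 and lost its call without replicate 1, 2 or 4 (adjusted p from 0.0615 to 0.092). Several widely used corticosteroid targets did not pass. The clock gene Per1 was at -0.08 ± 0.09 (adjusted p = 0.554), the transcription factor gene Klf9 at 0.25 ± 0.10 (0.103), and Edn1, the endothelin-1 gene, at 0.39 ± 0.15 (0.102) although its arrays lay between 0.36 and 0.42. The error of Edn1 is larger than its 6 h arrays alone would give, because the fit takes its spread from the 1 h arrays too, and without replicate 3 at 1 h its adjusted p was 0.0104. The phosphatase gene Dusp1 split, replicates 1 and 2 being positive at 0.69 and 0.54 while replicates 3 and 4 were negative at -0.18 and -0.34. The NF-kB inhibitor gene Nfkbia averaged 0.69 ± 0.42 (adjusted p = 0.275), its arrays running from 0.07 on replicate 3 to 1.23 on replicate 4. Ndrg1 and Nrip1 did not pass as averages of probes that were called in opposite directions when each probe was tested alone. The probes of Ndrg1 were at 0.38 (adjusted p = 0.0344) and -0.39 (0.0296), and those of Nrip1 at 0.635 (0.00859) and -0.46 (0.015). Neither gene is therefore given a direction here, and Nrip1 is also counted among the receptor cofactors below.

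**Figure D1:**
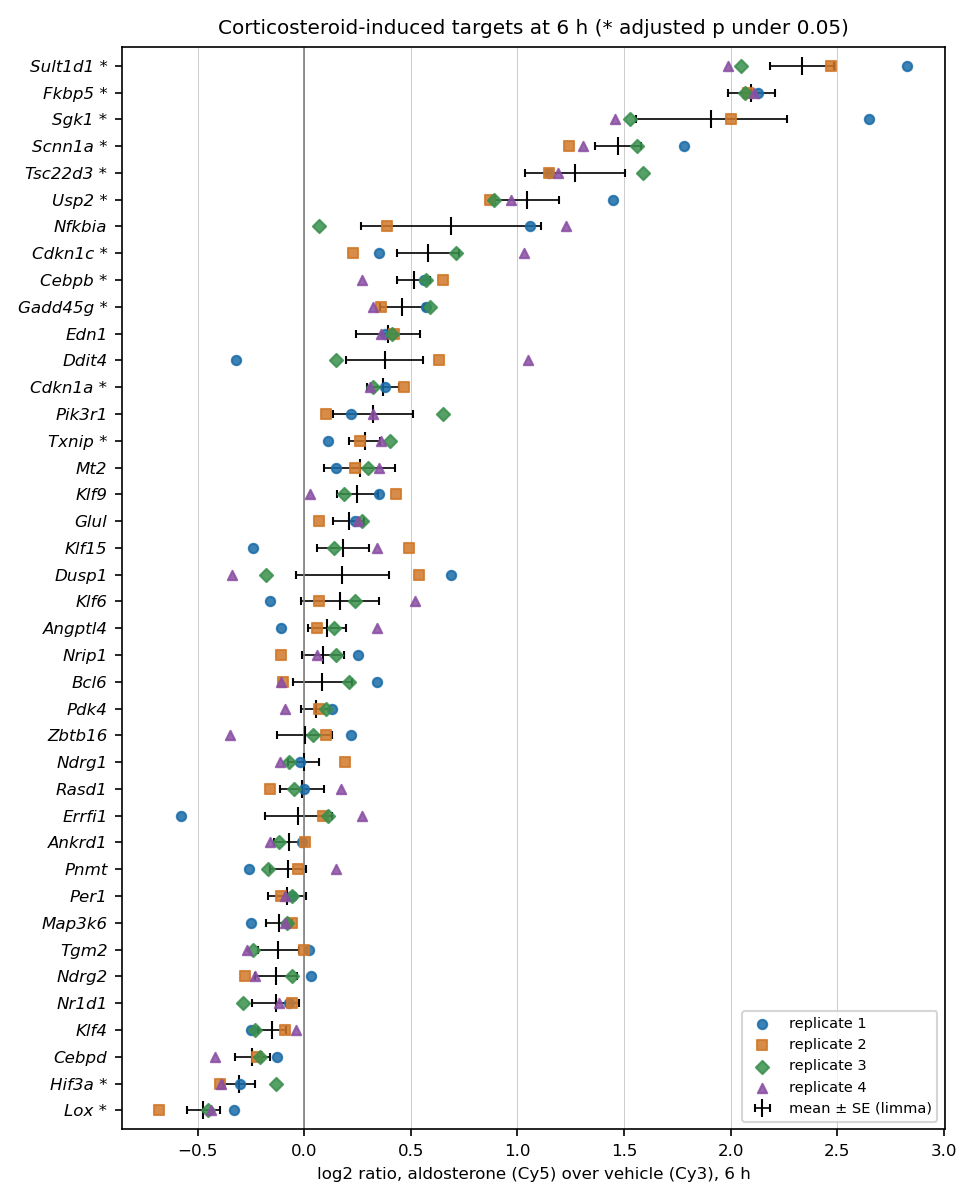
Log2 ratios of aldosterone over vehicle on the 4 arrays at 6 h (symbols, 1 for each replicate) for the 40 measured corticosteroid-induced targets, with the mean and the standard error of the limma fit (n = 4). Sult1d1, Fkbp5, Sgk1, Scnn1a, Tsc22d3 and Usp2 lie apart at the top, with every array above 0.8, and most other members lie within 0.5 of 0.

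Of 22 measured genes for the receptors, the enzymes that activate or inactivate corticosteroids and the receptor's chaperones and coactivators, 4 were above vehicle (18.2%), none was below and 18 did not pass, with a median of 0.16. At 1 h 8 of the 22 were above and 1 below, where 19.9% of all features were above. Fkbp5 was one of the 4 above vehicle at 6 h. Ppp5c, a protein phosphatase that joins receptor complexes through Hsp90, read 0.53, 0.72, 0.48 and 1.54, so replicate 4 was far above the rest, and its mean was 0.82 ± 0.16 (adjusted p = 0.0112). Ncoa3, a p160 coactivator of nuclear receptors, was at 0.45 ± 0.07 (adjusted p = 0.00535), with arrays from 0.33 to 0.54. Bag1, a co-chaperone of Hsp70, was at 0.44 ± 0.10 (adjusted p = 0.0172) and lost its call without replicate 2, 3 or 4 (adjusted p from 0.0512 to 0.0784). The glucocorticoid receptor gene Nr3c1 did not pass at -0.24 ± 0.20 (adjusted p = 0.419), since its arrays ran from 0.14 on replicate 1 to -0.53 on replicate 4. Hsd11b2, the enzyme that shields the mineralocorticoid receptor from glucocorticoids, was at 0.17 ± 0.08 (adjusted p = 0.167). The mineralocorticoid receptor gene itself was not analysed here.

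Among 40 genes that carry sodium or regulate its transport, 8 were above vehicle (20%, against 7.07%), 1 was below (2.5%, against 10.6%) and 31 did not pass. The list's median was 0.08. At 1 h its median was 0.23, and 15 of the 40 were above and 6 below, where 19.9% of all features were above. The list shares Sgk1, Scnn1a, Tsc22d3 and Usp2 with the corticosteroid targets. Of the channel's own subunits, Scnn1a was above vehicle. The beta subunit gene Scnn1b, at -0.10, -0.01, -0.34 and -0.14 on the 4 arrays, did not pass (-0.15 ± 0.08, adjusted p = 0.225). Scnn1g, the gamma subunit gene, at 0.05, -0.36, -0.33 and -0.42, did not pass either (-0.27 ± 0.12, adjusted p = 0.145).

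The sodium pump's beta-1 subunit gene Atp1b1 read 1.35, 1.30, 1.22 and 1.52. The 4 arrays lay close together, and the mean of 1.35 ± 0.09 was a 2.54-fold difference (adjusted p = 0.000223). Atp1b3, the beta-3 subunit gene, did not pass at 0.19 ± 0.09 (adjusted p = 0.155). Of the small FXYD proteins that tune the pump, Fxyd5 was below vehicle at -0.34 ± 0.08 (adjusted p = 0.0238), called no longer without replicate 1, 3 or 4 (adjusted p from 0.0535 to 0.0844), and Fxyd2, Fxyd3, Fxyd4, Fxyd6 and Fxyd7 did not pass. Fxyd7 was called without replicate 1 at 6 h (adjusted p = 0.0354) or replicate 4 at 1 h (0.0461).

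Among the regulators, 3 more genes were above vehicle by small amounts. Nedd4, a HECT ubiquitin ligase related to the one that removes the channel, was at 0.36 ± 0.11 (adjusted p = 0.0484), and leaving out replicate 2, 3 or 4 at 6 h or replicate 1, 2 or 3 at 1 h ended its call. Slc9a3r1, the scaffold protein NHERF1, was at 0.36 ± 0.08 (adjusted p = 0.0159), not called without replicate 2 (0.0697). Stk39, the SPAK kinase of the WNK pathway, was at 0.25 ± 0.06 (adjusted p = 0.0259), not called without replicate 2, 3 or 4 (0.0862 to 0.0972). Nedd4l, the ligase that Sgk1 acts on, did not pass at 0.05 ± 0.13 (adjusted p = 0.825). The proteases that cleave the channel, Prss8, St14, Furin and Tmprss4, did not pass, although St14 was called without replicate 4 at 1 h (adjusted p = 0.0421). Of 16 genes of the WNK and chloride pathway, 1 was above (Stk39), 2 were below and 13 did not pass. The chloride channel gene Cftr was at -0.26 ± 0.06 (adjusted p = 0.0257), called no longer without replicate 1, 2 or 3 (0.0651 to 0.104).

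**Figure D2:**
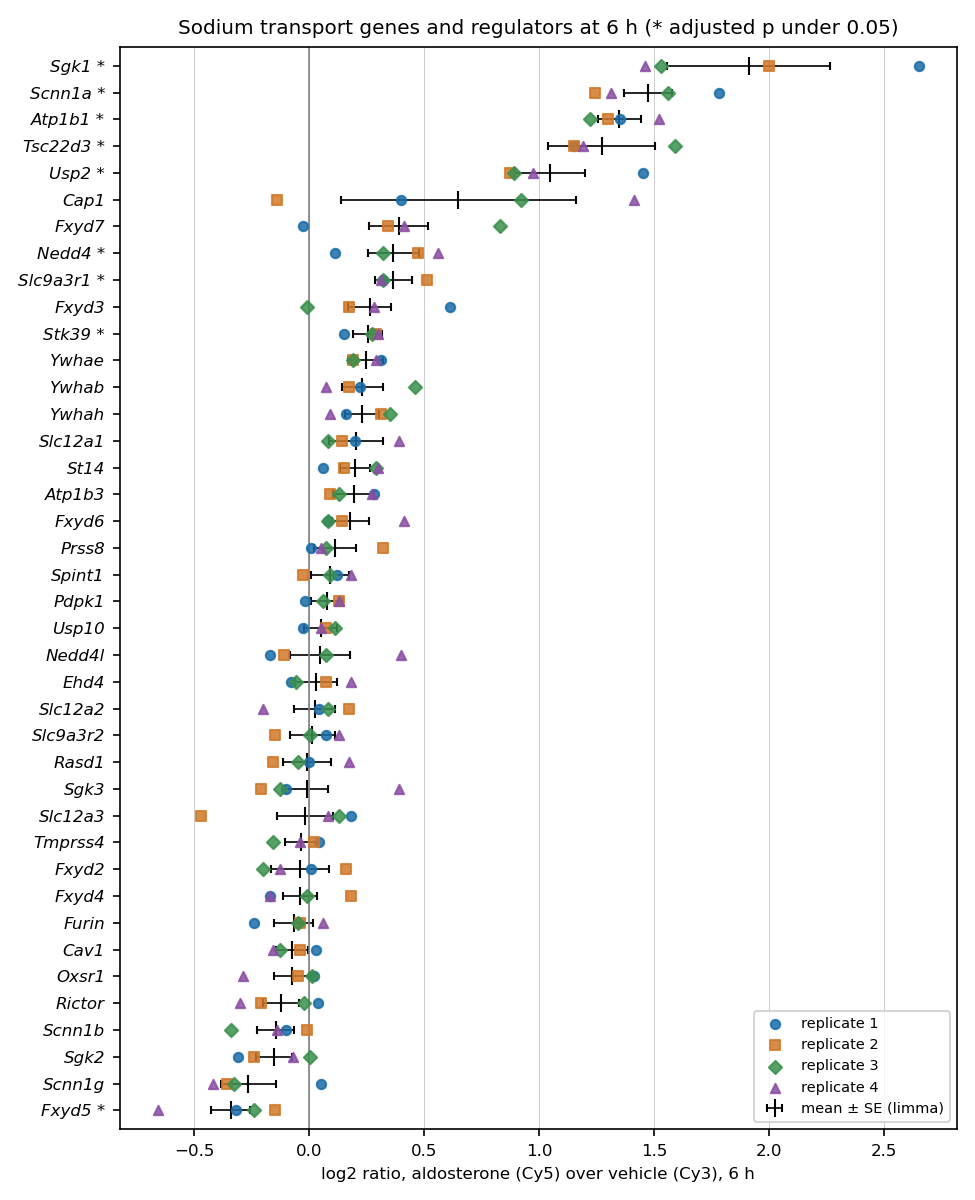
Log2 ratios on the 4 arrays at 6 h (symbols) for the 40 measured genes of sodium transport and its regulators, with the mean and standard error of the limma fit (n = 4) and a star for an adjusted p under 0.05. Sgk1, Scnn1a, Atp1b1, Tsc22d3 and Usp2 are above vehicle on every array by more than 0.8, and the other channel subunits Scnn1b and Scnn1g lie at or below 0.1.

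The 15 highest mean ratios among genes called without each array in turn ran from 1.16 to 2.33. Beside Sult1d1, Fkbp5, Sgk1, Scnn1a, Atp1b1 and Tsc22d3, these held C2cd4b, Cfp, Marveld3, Muc16, Rpl3l, Isg20, Serinc3, S100pbp and Noct. Cfp, the gene of the complement regulator properdin, read 2.66, 1.45, 1.18 and 2.72, so replicates 1 and 4 were far above replicates 2 and 3, and its mean was 2.00 ± 0.26 (adjusted p = 0.00241). C2cd4b, a C2 domain gene known from pancreatic islets, had 3.31 on replicate 2 and 1.71 to 2.04 on the others, with a mean of 2.24 ± 0.42 (adjusted p = 0.00873). Marveld3, a tight-junction membrane protein gene, was between 1.28 and 2.13 on the 4 arrays, with a mean of 1.75 ± 0.28 (adjusted p = 0.00494).

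Serinc3, a membrane protein gene of the serine incorporator family, was among the steadiest, at 1.62, 1.48, 1.26 and 1.28 (mean 1.41 ± 0.09, adjusted p = 0.000186). Rpl3l, a ribosomal protein gene known mainly from muscle, read 1.08, 1.41, 1.68 and 1.79 (1.49 ± 0.16, adjusted p = 0.00137). The mucin gene Muc16 was high on replicate 4, at 2.95, against 0.92 to 1.48 on the others. Isg20, an interferon-induced exonuclease gene, and S100pbp showed the same form, with 2.15 and 1.99 on replicate 4 and at most 1.27 and 1.12 elsewhere. Noct, the gene of the rhythmic protein nocturnin, lay between 0.94 and 1.34 (1.16 ± 0.17, adjusted p = 0.00332). Of these 15 genes, 6 were furthest from 0 on replicate 1, 1 on replicate 2, 2 on replicate 3 and 6 on replicate 4.

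The 15 lowest mean ratios ran from -2.67 to -1.61. The lowest was Ccl3, a chemokine that draws macrophages, at -1.55, -3.72, -2.03 and -3.37. Replicates 2 and 4 were far below replicates 1 and 3, and the mean of -2.67 ± 0.35 was a 6.35-fold difference (adjusted p = 0.00245). Fgb, the fibrinogen beta chain gene, read -1.72, -1.79, -1.91 and -3.06 (-2.12 ± 0.24, adjusted p = 0.00159), and Ptgdr2, a prostaglandin D2 receptor gene, averaged -2.08 ± 0.36 (adjusted p = 0.00681). Arhgap20 was the steadiest of the group, with 1 array at -2.50 and 3 between -1.67 and -1.53.

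Other genes of the lowest 15 are known mainly from brain, muscle, germ line or taste cells. They were Dner, a neuronal Notch ligand (-2.47 ± 0.39), the proteoglycan gene Spock3 (-2.46 ± 0.50), the meiotic gene Rec114 (-1.97 ± 0.38), the myosin heavy chain gene Myh8 (-1.81 ± 0.34), the muscle glycogen subunit gene Ppp1r3a (-1.77 ± 0.27) and the bitter taste receptor gene Tas2r108 (-1.64 ± 0.31). Dydc1, Ccdc81, 4930509J09Rik, 6330415B21Rik and Tom1l1 made up the rest, at -2.29 to -1.61. Of these 15 genes, 8 were furthest from 0 on replicate 2, 6 on replicate 4, 1 on replicate 1 and 0 on replicate 3. Spock3 was at -5.04 on replicate 2, and without that array its mean was -1.61. The table gives ratios with no intensities, so the signal behind each is unknown.

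**Figure D3:**
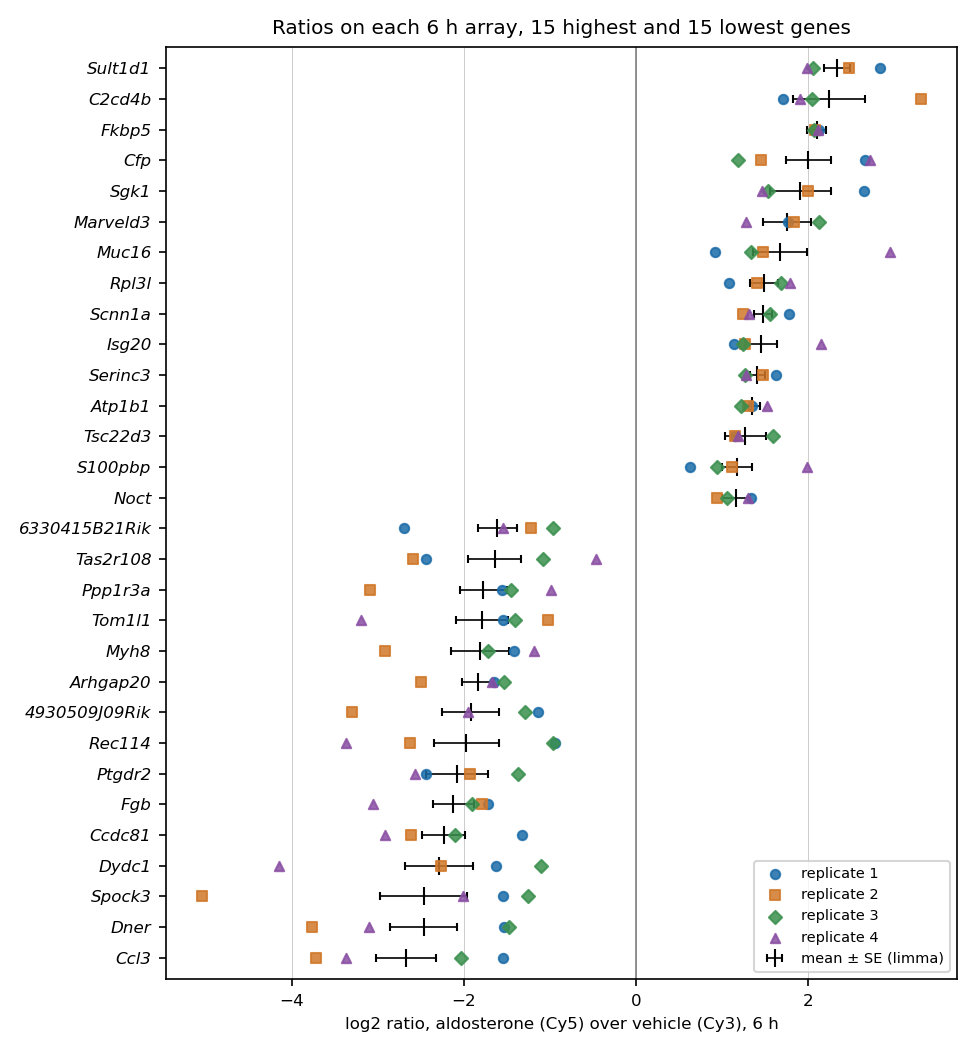
Log2 ratios on the 4 arrays at 6 h (symbols) for the 15 highest and 15 lowest genes that stayed called without each array in turn, with the mean and standard error of the limma fit (n = 4). The 4 arrays of Fkbp5, Serinc3 and Atp1b1 lie close together, and the genes below vehicle spread more widely, with replicate 2 or 4 the furthest from 0 for 14 of them.

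The difference of 6 h minus 1 h is a test in which a dye difference that is equal at both times cancels. It was run to see which 6 h ratios went beyond those already present after 1 h. Of 15078 features with values at both times, 4 (0.0265%) passed with limma, 3 above (0.0199%) and 1 below (0.00663%), and 2429 had an unadjusted p under 0.05. All 4 also passed at 6 h with the same sign. They are named because they are so few, after their values were seen, since no gene passed both tests without each array in turn.

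Sult1d1 was at 0.30, -0.14, -0.23 and -0.42 on the 1 h arrays, all below its lowest 6 h value of 1.99. The difference was 2.46 ± 0.21, or 5.49-fold (adjusted p = 0.00725). Fkbp5 averaged 0.53 at 1 h, and its difference was 1.57 ± 0.15, or 2.97-fold (adjusted p = 0.0122). Ccr7, a chemokine receptor gene of lymphocytes and dendritic cells, changed sign. It read 0.59, 0.93, 0.53 and 0.39 at 6 h against a mean of -0.60 at 1 h, a difference of 1.22 ± 0.15 (adjusted p = 0.0426). Cxcl5, a neutrophil-attracting chemokine gene, went the other way, from a mean of 0.46 at 1 h to -1.12, -0.88, -0.49 and -0.71 at 6 h, a difference of -1.26 ± 0.15 (adjusted p = 0.0426). The number passing this test fell to 0 without replicate 2 at 6 h or replicate 4 at 1 h, to 1 without replicate 1 or 3 at 6 h, and to 2 without replicate 1 or 2 at 1 h. It was 5 without replicate 4 at 6 h and 3 without replicate 3 at 1 h.

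Differences of other genes with high or low ratios at 6 h did not pass. That of Rpl3l was 1.79 (adjusted p = 0.0531), of Scnn1a 1.05 (0.0799), of Serinc3 0.91 (0.0696), of Sgk1 1.35 (0.256) and of Ccl3 -1.95 (0.199). The differences of Tsc22d3, at 0.985 (0.233), and Usp2, at 0.69 (0.213), did not pass either. Atp1b1 already averaged 0.835 at 1 h, and its difference of 0.51 did not pass (0.202). Across the calls at 6 h, 1005 of 1061 features above vehicle (94.7%) and 1530 of 1597 below (95.8%) also had a 1 h mean of the same sign, and 768 and 1033 of these were called at 1 h as well. They are 72.4% and 64.7% of the 6 h calls, and 25.6% and 32.8% of the 2997 above and 3154 below called at 1 h, when 40.8% of 15078 features were called in either direction. The arrays of both times have the same dye layout, so a dye difference would give the same sign at both. Of the features above vehicle 53.4% were further from 0 at 6 h than at 1 h, and of those below 65.9%. Tom1l1, Ptgdr2 and Fgb were nearer to 0 at 6 h than at 1 h, where they averaged -3.66, -3.15 and -2.96.

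**Figure D4:**
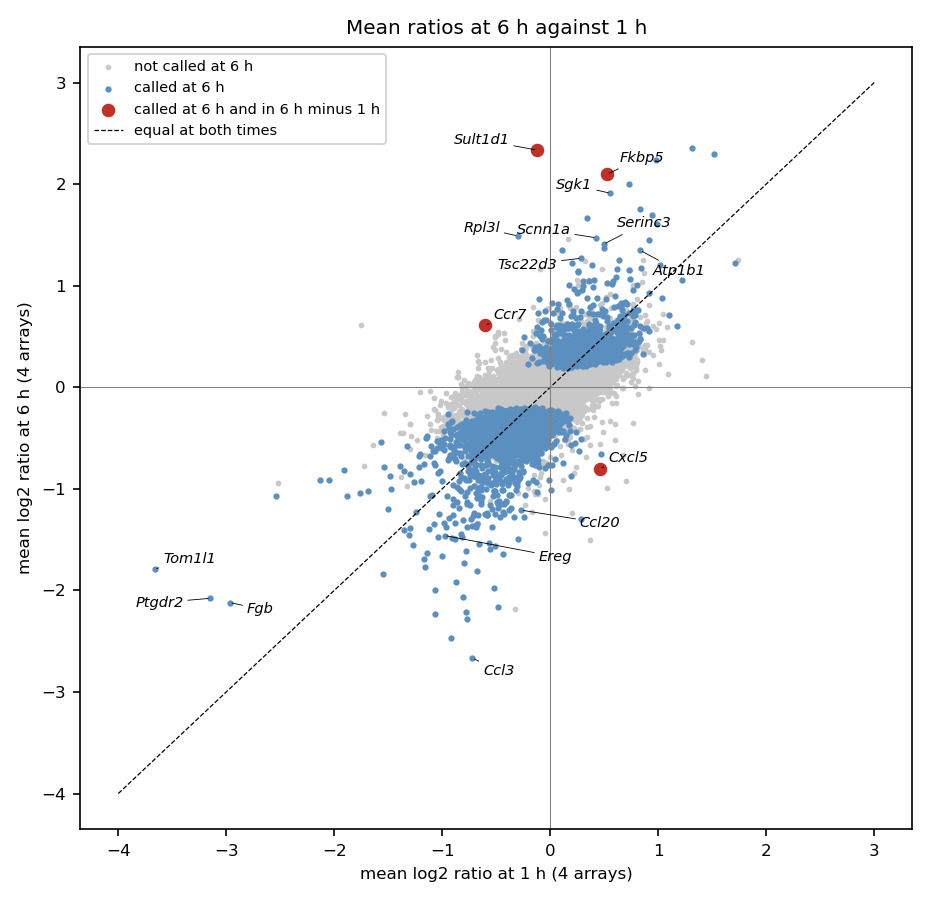
Mean log2 ratio at 6 h (vertical axis, 4 arrays) against that at 1 h (horizontal axis, 4 arrays) for the 15078 features with values at both times, with features called at 6 h in blue and those called also in 6 h minus 1 h in red. Sult1d1, Fkbp5 and Ccr7 lie above the line of equal ratios and Cxcl5 below it, and most blue points have the same sign at both times.

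Chemokines were called below vehicle more often than above. Of 51 measured ligands and receptors, 9 were below (17.6%, against 10.6% of all features), 3 were above (5.88%, against 7.07%) and 39 did not pass, with a median of -0.09. After Ccl3 came Ccl20, which attracts lymphocytes and dendritic cells through Ccr6, with arrays of -1.41, -1.09, -0.98 and -1.36 (-1.21 ± 0.14, adjusted p = 0.00147). Cxcr6, the receptor of Cxcl16, was at -0.91 ± 0.10 (adjusted p = 0.00147) and Cxcl5 at -0.80 ± 0.11 (adjusted p = 0.00279). Of the 3 called above vehicle Ccr7 had the highest ratio, at 0.61 ± 0.10 (adjusted p = 0.00613).

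Of 101 interleukin, interferon and TNF family genes, 10 were below (9.9%), 4 were above (3.96%) and 87 did not pass, shares at or under those of all features. Tnf, the tumour necrosis factor gene, was at -0.51 ± 0.09 (adjusted p = 0.00795) with arrays from -0.63 to -0.39, Il1rl2, a receptor of the interleukin-36 cytokines, at -0.86 ± 0.13 (0.00462), and Il7r at -0.65 ± 0.12 (0.00758). Il17b was above, at 0.59 ± 0.11 (adjusted p = 0.00898). Of 29 NF-kB and innate response genes 4 were above (13.8%) and none below. Ikbkg, the regulatory subunit of the IkB kinase, held without each array (0.45 ± 0.08, adjusted p = 0.00818), and Rela lost its call without each of the 6 h arrays in turn. Among 54 complement and coagulation genes, 4 were above, led by Cfp, and 8 below, led by Fgb, with F8, coagulation factor VIII, at -0.42 ± 0.06 (adjusted p = 0.00379). That list was drawn by name and holds C1ql3 (-0.77) and C1qtnf4 (0.39), which are not complement genes.

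A list of genes that dampen growth factor, cytokine or G-protein signals was also called below more often than all features. Of 51 genes of MAP kinase feedback and related inhibitors, 11 were below (21.6%), 3 were above (5.88%) and 37 did not pass, with a median of -0.01. Socs1, a suppressor of cytokine signalling, was at -0.69 ± 0.10 (adjusted p = 0.00369) and Rgs3, a regulator of G-protein signalling, at -0.68 ± 0.10 (0.00406), while Socs7 was above at 0.46 ± 0.09 (0.00991). Among 33 genes of mTOR, insulin and growth factor signalling, 2 were above and 3 below. Ereg, the EGF receptor ligand epiregulin, read -1.15, -1.83, -1.20 and -1.66 (-1.46 ± 0.14, adjusted p = 0.000703). Egfr itself was above vehicle at 0.87 ± 0.22 (adjusted p = 0.0256), and its call ended without each of the 6 h arrays in turn (0.0553 to 0.0977). Of 32 immediate early transcription factor genes, 3 were above and 1 below. Fosl1 stood at 0.90 ± 0.20 (adjusted p = 0.0179) and was not called without replicate 2 (0.0715) or 4 (0.0746), and Junb lost its call without each of the 6 h arrays in turn. In the circadian clock list 1 of 18 passed, Bhlhe41, at 0.31 ± 0.08 (adjusted p = 0.0315), called no longer without replicate 1, 2 or 4 at 6 h or 3 at 1 h. Of 48 extracellular matrix and TGF-beta genes 6 were above and 3 below. The collagen gene Col3a1 was at 0.46 ± 0.09 (adjusted p = 0.00991) and the growth factor gene Tgfb1 at -0.66 ± 0.15 (0.016), which lost its call without replicate 1 or 2.

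Glucose metabolism had the same share above vehicle as the corticosteroid targets. Of 40 measured genes, 11 were above (27.5%, against 7.07%), 2 were below (5%, against 10.6%) and 27 did not pass, with a median of 0.11. The glycolytic enzyme genes Pgam1 (0.76 ± 0.15, adjusted p = 0.0106), Tpi1 (0.58 ± 0.11, 0.00976) and Hk2 (0.46 ± 0.07, 0.00437) and the glycolytic activator gene Pfkfb3 (0.59 ± 0.10, 0.00713) held without each array. The gluconeogenic enzyme gene G6pc was below vehicle, at -0.57 ± 0.08 (adjusted p = 0.00326). At 1 h 19 of the 40 were above, where 19.9% of all features were, and the differences of 6 h minus 1 h of the 4 glycolytic genes did not pass (adjusted p from 0.352 to 0.935).

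Mitochondrial, ribosomal and lipid genes also had more calls above vehicle than below, in smaller shares. Of 65 oxidative phosphorylation subunits, 7 were above (10.8%), none was below and 58 did not pass, with a median of 0.14. At 1 h 26 of the 65 were above and 5 below, with a median of 0.21. Ndufb8 was at 0.46 ± 0.07 (adjusted p = 0.00478) and Ndufa1 at 0.33 ± 0.06 (0.00779), its 4 arrays between 0.32 and 0.34. Of 62 cytosolic ribosomal protein genes 8 were above (12.9%) and 2 below (3.23%), with a median of 0.15, and 39 of the 62 were above at 1 h, against 19.9% of all features. Rpl13 was below, at -1.46, -1.39, -0.72 and -0.52 (-1.02 ± 0.15, adjusted p = 0.00373), as was Rpl37 (-0.73 ± 0.14, 0.0106). Of 32 cholesterol and fatty acid synthesis genes 4 were above and none below, with a median of 0.16, and each of the 4 lost its call without at least 1 array. The highest was Nsdhl, a sterol dehydrogenase gene, at 0.80 ± 0.20 (adjusted p = 0.0249). Of the same 32 genes, 12 were above and 1 below at 1 h. The list of 31 genes of protein folding and heat shock had 4 above and 1 below, led by the endoplasmic reticulum chaperone gene Dnajb11 at 0.45 ± 0.09 (adjusted p = 0.0126), and none of the 5 calls held without each array. This list had 13 above and 4 below at 1 h.

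Ubiquitin enzymes and membrane traffic also held more calls above vehicle than all features. Of 48 ubiquitin-specific proteases and HECT ligases, 8 were above (16.7%), 3 were below (6.25%) and 37 did not pass. Usp47 (0.40 ± 0.07, adjusted p = 0.0071), Wwp1, a ligase of the Nedd4 family (0.33 ± 0.06, 0.00964), and Usp25 (0.33 ± 0.06, 0.00932) held without each array at small ratios. Of 165 Rab GTPase and membrane traffic genes 21 were above (12.7%), 14 below (8.48%) and 130 did not pass. Rab15, which acts in endosome recycling, was at 0.72 ± 0.11 (adjusted p = 0.00373) and Vps35, the retromer subunit, at 0.48 ± 0.07 (0.00332), while Vps13a, a lipid transfer protein gene, was at -1.01 ± 0.15 (0.00411). Of 106 actin and microtubule genes 13 were above and 5 below, with Tubb2a, a beta-tubulin gene, at 0.76 ± 0.09 (adjusted p = 0.00194).

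Broader transporter families gave calls in both directions. Of 237 solute carrier genes, which include some of the sodium list, 14 were above (5.91%), 28 below (11.8%) and 195 did not pass, shares close to those of all features. Slc9a9, an endosomal sodium-proton exchanger, read -1.32, -1.95, -1.24 and -1.01 (-1.38 ± 0.13, adjusted p = 0.000757), and Slc25a3, the mitochondrial phosphate carrier, was above at 0.51 ± 0.06 (0.00241). Of 57 potassium channel genes 3 were above (5.26%), 11 below (19.3%) and 43 did not pass, with a median of -0.12. Kcnk1, a pore-domain potassium channel of tubule cells, was above vehicle at 0.62 ± 0.09 (adjusted p = 0.00332), as was Kcnn1, a calcium-activated channel known from neurons (0.88 ± 0.15, 0.00713). Kcnj12, an inward rectifier of heart and muscle, was below (-0.42 ± 0.07, 0.00535). Of 34 ABC transporters 4 were above and 5 below, with the sterol transporter Abcg5 at 1.05 ± 0.14 (adjusted p = 0.00282), after 1.22 at 1 h.

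Other conjugating enzymes gave lower ratios than Sult1d1. Of 40 sulfotransferases, glucuronosyltransferases and glutathione transferases 3 were above (7.5%), 6 were below (15%) and 31 did not pass. Sult3a1 read -0.92, -1.12, -0.98 and -1.27 (-1.07 ± 0.08, adjusted p = 0.000313), Sult4a1 lay between -0.90 and -0.79 (-0.82 ± 0.07, 0.000585), and the glycosyltransferase gene Ugt3a2 was at -1.15 ± 0.17 (0.00377). A list of 96 genes held cytochromes P450, hydroxysteroid dehydrogenases, aldehyde dehydrogenases, aldo-keto reductases and the steroid reductase gene Srd5a3. Of these 1 was above (1.04%), 14 were below (14.6%) and 81 did not pass. The sterol 27-hydroxylase gene Cyp27a1 led those below, at -1.19 ± 0.16 (adjusted p = 0.00279). Among 30 prostaglandin genes 2 were above and 4 below, among them Ptgdr2. The prostaglandin E2 receptor gene Ptger2 was at -0.80 ± 0.13 (adjusted p = 0.00613) and Hpgd, the enzyme that degrades prostaglandins, at -0.57 ± 0.07 (0.00241).

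**Figure D5:**
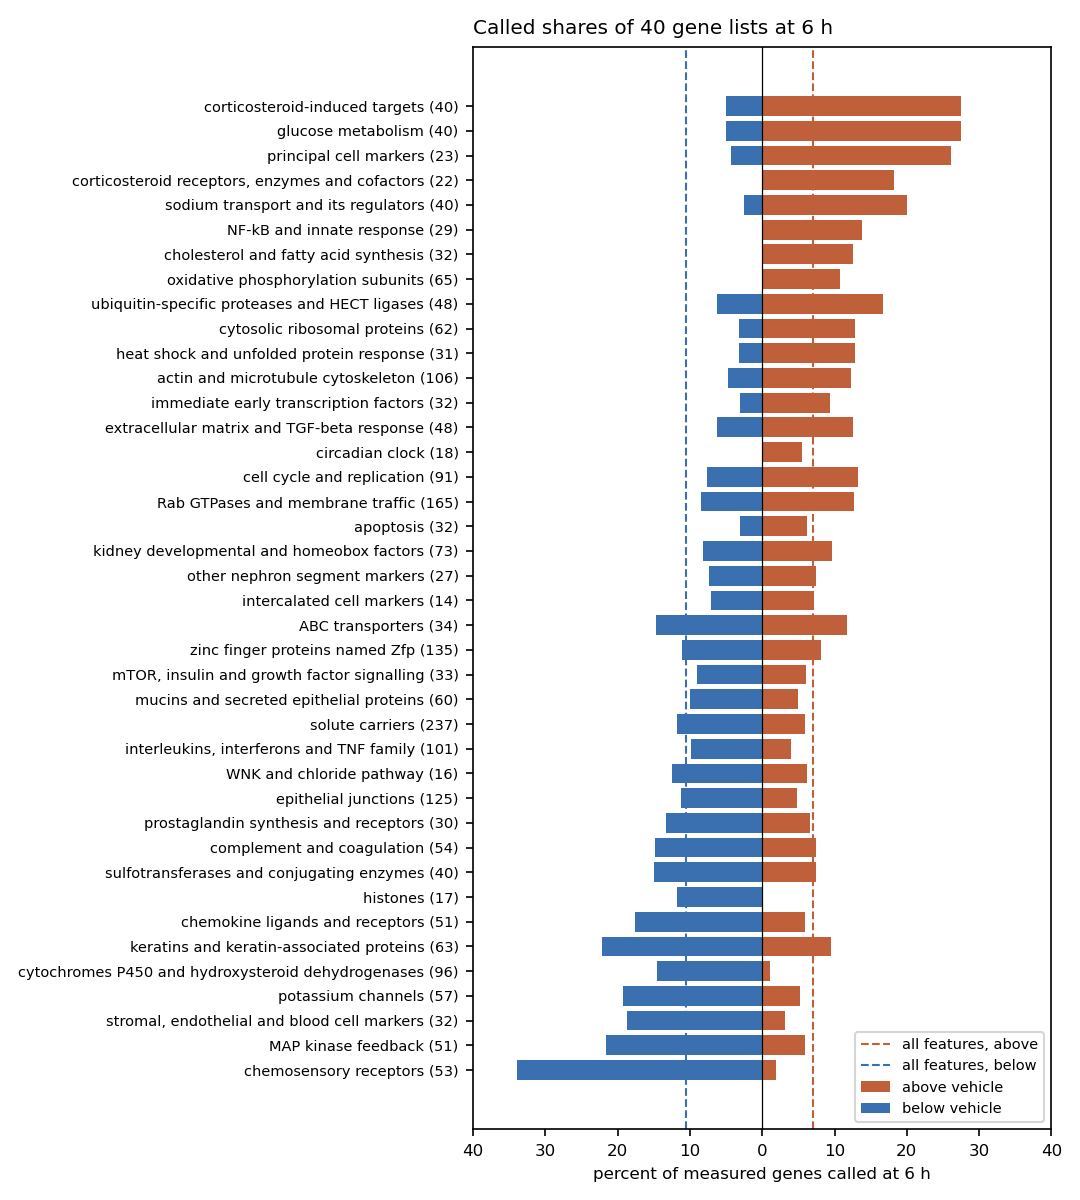
Percent of the measured genes of each of 40 lists called above vehicle (right) and below vehicle (left) at 6 h, with the number measured in brackets and dashed lines at the shares over all features (7.07% above, 10.6% below). Corticosteroid targets and glucose metabolism have the highest shares above, 27.5% each, and chemosensory receptors the highest share below, 34%.

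Epithelial markers were examined because the line is labelled as collecting duct. Ratios do not give levels, so they cannot show which markers the line expressed. Of 23 measured markers of principal cells, the sodium-absorbing cells of the collecting duct, 6 were above vehicle (26.1%), 1 was below (4.35%) and 16 did not pass, with a median of -0.03. Scnn1a, Kcnk1 and the keratin gene Krt7 (0.51 ± 0.09, adjusted p = 0.00628) held without each array. The epithelial transcription factor gene Elf3, at 0.75 ± 0.16 (adjusted p = 0.0141), was not called without replicate 2 (0.0605) or 4 (0.065). Elf5, another factor of the same ETS family, was below vehicle at -0.97, -1.04 and -1.58 on replicates 1, 3 and 4 and lower on replicate 2 (-1.40 ± 0.18, adjusted p = 0.00241), and a further ETS factor of epithelia, Ehf, was above at 0.93 ± 0.16 (0.00634), with 1.61 on replicate 1 and 0.63 to 0.76 on the others. The kidney transcription factor gene Pax8 lay between 0.64 and 0.92 (0.76 ± 0.09, adjusted p = 0.0021). Of 14 intercalated cell markers 1 was above and 1 below, Car2 and Foxi1, both lost when arrays were left out, and of 27 markers of other nephron segments 2 were above and 2 below. Among these 27, 1 was read by several probes, at 0.04 and -1.11, and entered the count by their average.

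Markers of cells from outside the nephron were called below vehicle more often than above. Of 32 stromal, endothelial and blood cell markers 6 were below (18.8%, against 10.6%), 1 was above (3.12%) and 25 did not pass, and the list's median on the 4 arrays ran from -0.16 to -0.09. The endothelial receptor gene Flt1 was at -0.74 ± 0.12 (adjusted p = 0.00518) and the myeloid peroxidase gene Mpo at -0.60 ± 0.09 (0.00373). Olfactory, vomeronasal and taste receptors, which belong to sensory cells, had the highest share below vehicle of the 40 lists. Of 53 measured, 18 were below (34%, against 10.6%), 1 was above (1.89%) and 34 did not pass, with a median of -0.04. Olfr17 read -1.28, -1.66, -1.06 and -1.41 (-1.35 ± 0.13, adjusted p = 0.000839), and Olfr74 and Vmn1r54 were at -1.48 ± 0.16 and -1.45 ± 0.21. The hair protein gene Krtap19-5 was at -1.41 ± 0.13 (adjusted p = 0.000692), and the list of keratins and keratin-associated proteins had 14 of 63 below (22.2%) and 6 above. The calls below vehicle for chemokines, potassium channels and the lowest genes stood beside these calls of the same direction, whose part in them was not tested.

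Of 125 genes listed by name as epithelial junctions, 6 were above and 14 below (11.2%). Many of the 125 are protocadherins, so the count is not one of epithelial junctions alone. Pcdhb3, one of the protocadherins, was at -0.71 ± 0.07 (adjusted p = 0.000585). Of 60 mucins and secreted proteins 3 were above and 6 below, where Muc15 (-0.91 ± 0.13) and Muc13 (-0.70 ± 0.12) went against Muc16. Of 91 cell cycle and replication genes 12 were above (13.2%) and 7 below, with Cdk16 at 0.47 ± 0.07 and the phosphatase gene Cdkn3 at -0.77 ± 0.11. Of 32 apoptosis genes 2 were above and 1 below, Casp12, at -0.71 ± 0.14. Of 73 developmental and homeobox factors 7 were above and 6 below, and Hoxa4 stood at -0.68 ± 0.09. Of 17 histone genes 0 were above and 2 below, and of 135 genes named Zfp 11 were above and 15 below, with Zfp979 at -1.37 ± 0.13 (adjusted p = 0.000703). In all, 19 of the 40 lists had a larger share above than below and 19 the reverse.

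The 76 probes with values at 6 h only have no 1 h ratio to be set against. Of these 14 were called (18.4%, against 17.6% of all features in either direction), 11 above and 3 below. Dner was the lowest, with -1.53, -3.76, -1.48 and -3.10. Tgfb3, a transforming growth factor beta ligand, read -0.47, -1.48, -1.26 and -1.02 (-1.06 ± 0.16, adjusted p = 0.00886), with replicate 1 nearest to 0. Above vehicle, Armcx3, a mitochondrial outer membrane protein gene, was at 1.35, 0.57, 0.88 and 1.37 (1.04 ± 0.15, adjusted p = 0.00717). Mpp4, a scaffold gene of photoreceptors, was at 0.85 ± 0.10 (0.00464), the probe M200014822 of the cilia gene Cfap57 at 0.71 ± 0.10 (0.00717), and the teneurin gene Tenm1 at 0.53 ± 0.09 (0.0144). These 6 calls held without each array. The feature of Cfap57 read at both times lay on the other side of vehicle, at -0.28, -0.29, -0.32 and -0.27 (-0.29 ± 0.07, adjusted p = 0.0182), a call that ended without each of the 6 h arrays in turn, so the gene is given no direction here. Dusp28, a dual-specificity phosphatase gene, reached 2.40 and 2.45 on replicates 2 and 4 against 0.88 and 0.78 on the others (1.63 ± 0.32, adjusted p = 0.019), and its call ended without replicate 2 (0.0643) or 4 (0.0645). Ctdspl, Fam111a and the unnamed probe M200000208 also lost their calls without some of the 6 h arrays. Without replicate 2, 3 or 4 between 8 and 9 of the 76 were called.

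Unnamed probes made up 129 of the calls above and 355 of those below. Of these, M200011568 and M200015311 had the highest means, at 1.38 ± 0.36 and 1.22 ± 0.25, and M200010418 and M200001996 the lowest, at -2.21 ± 0.35 and -2.07 ± 0.45. M200011568 lost its call without each of the 6 h arrays in turn and M200015311 lost its call without replicate 4. M200001996 was at -4.33 on replicate 4 and between -1.86 and -1.01 on the others, and without replicate 4 its mean was -1.31.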

How the data were processed

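The deposited table holds 1 log2 ratio of Cy5 over Cy3 per probe and array. Per the labels, the authors scanned the arrays with GenePix, normalized the log2 ratios in R and Bioconductor and selected genes with a one-class SAM; for the normalization method, the background correction and the treatment of spots the entry is: not given in the sources used here. The direction follows the dyes in the labels, and scale and centring were kept as deposited. Intensities of the 2 channels were not analysed here. The signal over background is therefore unknown, and the precision stated here rests on the spread between the arrays of both times. Of 16361 probes, 13768 carried 1 gene symbol in the platform annotation, 13 several and 2580 none. Probes of a gene with values on all 8 arrays were averaged (938 genes), and 76 probes read at 6 h only were kept apart. limma 3.58.1 in R 4.3.3 fitted a mean per time over 8 arrays with empirical Bayes variances. P-values were adjusted by Benjamini-Hochberg over 15154 features at 6 h and over 15078 for 6 h minus 1 h. In a test on simulated data at 6 h, the fit recovered 62.7% of log2 changes of 0.5, 91% of 1 and 100% of 2. For the difference of 6 h minus 1 h it recovered 28.4%, 73.1% and 98.5%. The simulated noise was normal and independent, with 1 spread per feature on all arrays, few planted changes and no dye difference. The real arrays differ in spread and share a dye layout, so these shares need not hold for them. No pair of arrays had more than 1.95% equal values. Named genes were the 15 highest and 15 lowest that passed on all arrays and without each array, up to 5 members per list with the smallest p, every measured member of the corticosteroid target, receptor and sodium lists, up to 10 probes read at 6 h only, and 2 unnamed probes in each direction. The members and lists were chosen with earlier results of these data known. The alternatives were array weights, scaling, centring, a robust fit, a minimum change, SAM, 6 h arrays alone, each probe alone, other feature sets and leaving out each array.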

Additional observations from a re-analysis of the deposited data

Results flagged for a closer look

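In 4 genes the ratio at 6 h differed from that at 1 h in the test of the difference itself (limma, adjusted over 15078 features). Sult1d1 was higher at 6 h by 2.46 ± 0.21 (adjusted p = 0.00725), Fkbp5 by 1.57 ± 0.15 (0.0122) and Ccr7 by 1.22 ± 0.15 (0.0426), and the difference of Cxcl5 was -1.26 ± 0.15 (0.0426).

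In some genes the gap between 1 of the 4 arrays at 6 h and the other 3 made up most of the range, by a test that chance alone meets in about 1 in 20 groups. The number of groups screened is not given here, and how many of these flags are due to chance was not tested. Replicate 4 was further from 0 than the others for Fgb (-3.06, others from -1.91 to -1.72), Isg20 (2.15, others from 1.14 to 1.27), Mpo (-0.93, others from -0.52 to -0.46) and Ndufb8 (0.59, others from 0.40 to 0.42), and nearer to 0 for the probe M200014822 of Cfap57 (0.38, others from 0.77 to 0.84), a gene whose other feature was below vehicle. Replicate 2 stood apart for Arhgap20 (-2.50, others from -1.67 to -1.53) and Slc9a3r1 (0.51, others from 0.31 to 0.32). Replicate 3 stood apart for Tsc22d3 (1.59, others from 1.15 to 1.19), and replicate 1 for Ehf (1.61, others from 0.63 to 0.76) and Usp47 (0.52, others from 0.35 to 0.37). In Ndufa1 (0.34 on replicate 2, others at 0.32) and Rela (0.28 on replicate 3, others at 0.21) the other 3 values are equal to 2 decimals, so a gap of any size meets the test.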

How the results depend on the processing

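The numbers called at 6 h depended on the processing. Most alternatives left the mean ratio of a feature as it was or nearly so, and its direction could hardly change in them. Against 1072 features above and 1600 below, array weights called 1824 above, scaling each array by its median absolute deviation 2341 and 2630, one-class SAM at a false discovery rate of 5% 2444 and 2880, and a test against a minimum log2 change of 0.25 51 and 207, which asks for more by construction. Leaving out 1 array gave 353 to 1846 above and 750 to 2132 below. In the difference of 6 h minus 1 h, 4 features were called, against 8 with array weights, 9 with scaling and 0 to 5 with 1 array left out. Both tests together called 4, against 7, 8 and 0 to 4. Of the 76 probes read at 6 h only, 8 to 14 were called with 1 array left out. The cause of these changes was not tested. Using the 6 h arrays alone called 1044 above and 1317 below, of which 808 and 1208 were shared with the fit over 8 arrays. Taking the probe nearest to 0 for genes with several was an alternative chosen after seeing the data. It ended 1 call of 136 named in the text, but a gene with 1 probe cannot change in it. The call that ended was that of Hif3a, whose nearer probe was at -0.10 (limma, adjusted p = 0.609). Rgs3 and Vps35, also read by several probes, kept theirs. Some genes named in the report that did not pass changed sign without 1 array, each near 0. Among them were Fxyd2 (from -0.11 to 0.01), Tmprss4 (from -0.06 to 0.01), Nedd4l (from -0.07 to 0.12) and Ndrg1 (from -0.07 to 0.03). No paired analysis was possible because the labels give no replicate numbers shared between the times.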
